A study of Homo sapiens with 22 samples.

Results

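Of 109111 regions in the deposited Rad21 count table, 137 lay on chromosomes 1 to 22 or X, overlapped a CTCF peak in each of the 6 CTCF libraries by at least 1 bp, and carried a Rad21 peak in both libraries made after 72 h in PMA and in neither library made at 0 h. These 137 members came from 11460 regions with a CTCF peak in all 6 libraries. For comparison, 3477 of those regions had a Rad21 peak in all 4 Rad21 libraries (kept) and 1704 had one in both 0 h libraries and neither 72 h library (lost). The peaks of Rad21 and of CTCF selected the members (they were chosen by peak calls), so Rad21 and CTCF levels are given below as description, with no test. H3K27ac and Jun libraries took no part in the choice and carry the tests.

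The cells were wild-type K562, a leukaemia line that carries the BCR-ABL1 fusion. It is 1 cell line, and it can be driven toward a megakaryocyte-like state. All 11 groups (22 libraries) came from these cells, with 25 nM PMA given for the time named and 2 libraries per group. For CTCF, H3K27ac and Jun there were libraries at 0, 6 and 72 h. Rad21 had none at 6 h, so that state of cohesin was not measured. The assay was CUT&RUN on formaldehyde-fixed cells, in which an antibody directs a nuclease to the protein or mark of interest and the released DNA is sequenced. Nothing in the labels says that replicates were separate cultures, so p-values measure the spread between these libraries, which may be technical.

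Cohesin is a ring-shaped complex that holds DNA strands together and extrudes chromatin loops, and Rad21 is the subunit that closes the ring. CTCF is a zinc-finger protein whose bound sites stop extruding cohesin, so most strong cohesin peaks in mammalian cells lie on CTCF sites and mark loop anchors. H3K27ac is the histone acetylation found at active promoters and enhancers. Jun is a subunit of AP-1, the factor downstream of protein kinase C, which PMA activates.

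Counts in regions ranged from 4398797 to 7285286 per Rad21 library, 2553677 to 6068421 per CTCF library, 12634261 to 27266241 per H3K27ac library and 4766421 to 18883962 per Jun library. Rad21 peaks numbered 34680 and 59005 in the 0 h libraries and 33048 and 25687 in the 72 h libraries, so a site had to pass in the 2 libraries with the fewest peaks. The identity of the line was checked on H3K27ac at 0 h. A region overlapped 6 of 7 K562 marker genes, at 41.9 to 214 CPM, and 3 of 6 genes of other cell types, at 1.40 to 15.1 CPM, against a median of 2.24 CPM over all tested regions (CPM, counts per 1000000 counts in regions, with library sizes scaled by TMM).

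Promoters are where the sequence under a member could be read, since the RefSeq table (GRCh38.p14) gives each promoter from 250 bases before to 50 bases after the gene start. Of the 128 members on the chromosomes it covers, 15 (11.7%) overlapped 18 such promoters, against 13.3% of kept and 2.59% of lost regions. The core of the CTCF motif (CC, any 3 bases, AG, any 2 bases, GGC and any base), searched on both strands, was in 10 of the 18 promoters (55.6%), in 26.3% of 617 promoters under kept regions, in 34.7% of 49 under lost regions and in 10.5% of all 34961 promoters. Members, kept and lost regions were all required to overlap CTCF peaks, which favours the core over its share in all promoters. The AP-1 letters TGANTCA, which do not overlap that core, were in 2 of the 18 (11.1%). They were in 4.54% of promoters under kept regions, 4.08% under lost regions and 7.68% of all promoters. Inside 8 of the 15 members lay 10 core matches, in promoters of 8 genes, and the match at PAIP1 lay outside its member. The 10 are shown as the CTCF core letters that could be read inside members. Each is 29 bases, 5′ to 3′ along the strand of the core, with the core in capitals:

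NECAP2 (chr1:16440607-16440635, plus strand): ccgggtttCCAGCAGAGGGCGcacaaacg

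CYB561D1 (chr1:109493984-109494012, plus strand): ccccccagCCCCCAGAGGGCGctgtgggc

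LOC124902930 (chr12:49945718-49945746, plus strand): acagtgctCCAGCAGGGGGCGtcctcacc

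TMT1B (chr12:55681575-55681603, minus strand): atggaattCCTCCAGAGGGCGcaggtccc

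CCDC59, core A (chr12:82358880-82358908, minus strand): gctggcttCCACCAGGGGGCTcgcttcgt

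CCDC59, core B (chr12:82358786-82358814, minus strand): ctctgcttCCACTAGGGGGCGcgtctctg

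CCDC59, core C (chr12:82358570-82358598, minus strand): cggggtcaCCGGGAGAGGGCAagaagccg

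GFER (chr16:1984046-1984074, plus strand): acacgggcCCGCAAGCAGGCAccgccccc

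FLT3LG (chr19:49474142-49474170, plus strand): gcctctcaCCACCAGGGGGCGcgctccgc

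LINC02558 (chr22:31970811-31970839, plus strand): aggcgcagCCTCGAGGTGGCGctgtggag

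Cores A and B of CCDC59 begin at -95 and -1 from one annotated start of that gene, and core C at -203 from another. The middle of the 10 cores lay a median of 108.5 and 107 bp from the Rad21 summit in 72 h replicates 1 and 2, and 152.5 and 122 bp from the CTCF summit. At GFER, which encodes a sulfhydryl oxidase, the core lay 43 and 6 bp from the Rad21 summits and 254 and 345 bp from the CTCF summits. At LOC124902930, an uncharacterised locus, it lay 19 and 73 bp from the Rad21 summits and 14 and 47 bp from the CTCF summits. A match is a description of these letters, not a shown binding site. Further members, named below for acetylation or Jun, overlap promoters without an exact match to the core. Near matches were not searched, and bases outside promoters were not read. These promoters are of DHRS13, which encodes a dehydrogenase, and LINC02768, a long non-coding RNA gene. Their 250 bases before the start are shown beside those of CCDC59, a gene for a thyroid transcription factor-associated protein, with cores in capitals:

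CCDC59 (chr12:82358388-82358637, minus strand): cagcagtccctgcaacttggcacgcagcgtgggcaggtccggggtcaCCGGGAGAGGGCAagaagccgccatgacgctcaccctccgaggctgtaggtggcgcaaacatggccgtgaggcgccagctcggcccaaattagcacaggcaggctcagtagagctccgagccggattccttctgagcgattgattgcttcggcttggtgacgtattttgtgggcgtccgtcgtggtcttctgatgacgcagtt

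DHRS13 (chr17:28903080-28903329, minus strand): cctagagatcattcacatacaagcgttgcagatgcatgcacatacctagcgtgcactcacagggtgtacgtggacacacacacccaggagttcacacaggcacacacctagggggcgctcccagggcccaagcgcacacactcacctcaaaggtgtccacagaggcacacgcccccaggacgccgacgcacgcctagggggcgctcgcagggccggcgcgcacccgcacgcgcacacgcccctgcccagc

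LINC02768 (chr1:235972512-235972761, minus strand): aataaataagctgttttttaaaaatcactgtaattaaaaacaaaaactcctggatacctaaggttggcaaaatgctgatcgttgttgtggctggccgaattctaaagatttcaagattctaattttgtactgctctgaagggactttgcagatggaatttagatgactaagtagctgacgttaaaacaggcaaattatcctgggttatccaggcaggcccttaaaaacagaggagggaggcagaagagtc

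Cohesin was low at the members before PMA, higher after 72 h, and below the kept sites at both times. The median Rad21 level per member was 5.03 and 4.64 CPM in the 0 h libraries and 7.74 and 7.92 CPM in the 72 h libraries. In kept regions the medians were 16.7, 15.2, 14.4 and 13.95 CPM in the same order of libraries. Behind the member values stood median counts of 32 and 22 (0 h) and of 52 and 42 (72 h). In 113 of the 137 members (82.5%) both 72 h libraries lay above both 0 h libraries. The rule itself favours that order, so nothing is read from this share. The fitted log2 fold change had a median of 0.75 and a range of -0.26 to 2.62, above 0 in 134 members. The median was -0.05 over all tested regions, -0.09 over kept and -0.79 over lost regions. The difference between members and all tested regions was 0.80 under TMM scaling and 0.79 under scaling by total counts. By edgeR at an adjusted p under 0.05, 51 members were higher and none lower, where 23.3% of all tested regions were called, 15.4% higher and 7.91% lower, but the rule used this contrast and nothing is read from the count. The count was 22 without the first and 31 without the second 72 h replicate, and 20 by DESeq2. The authors' deposited table labels 136 of the members static and 1 up, against 107126 static, 1898 up and 87 down of all 109111 regions.

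**Figure D1:**
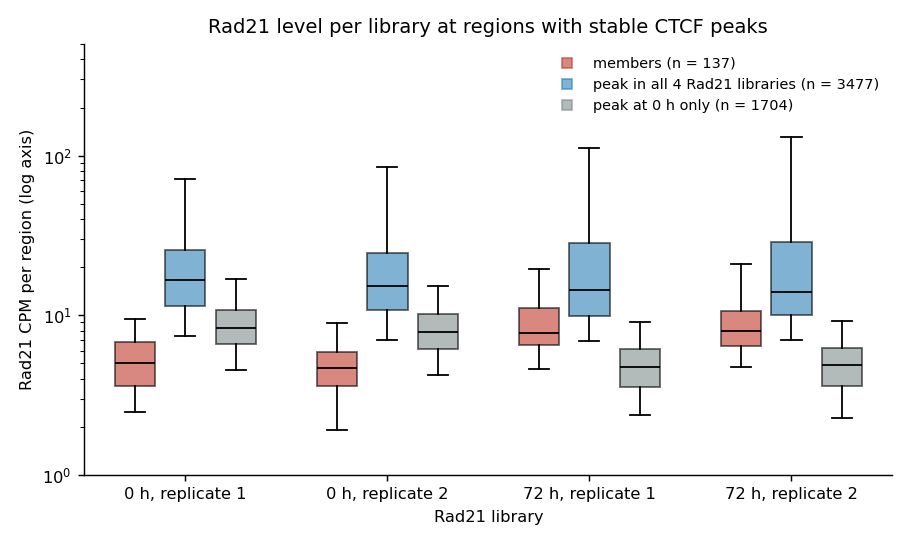
Rad21 level per region (CPM, log axis) in each of the 4 Rad21 libraries at members, kept and lost regions. Boxes span the quartiles with the median as a line and whiskers from the 5th to the 95th percentile; member medians are 5.03 and 4.64 at 0 h and 7.74 and 7.92 at 72 h, below the kept regions in every library.

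The threshold set the edge of the group. Median peak -log10 q at 72 h, the authors' value, was 8.39 and 7.02 in the members against 13.5 and 11.3 in the kept regions, and the median mean level was 6.64 against 15.5 CPM. The 3 members closest to the threshold, at chr19:10027731-10028092, chr11:19071143-19071587 and chr12:114625221-114625706, had a weaker 72 h peak at -log10 q of 2.78, 3.20 and 3.38. Their Rad21 log2 fold changes were 0.54, 0.17 and 0.47. The 3 regions nearest outside had 1 weak 0 h peak at -log10 q of 2.54, 3.19 and 3.39 and log2 fold changes of 0.73, 1.24 and 0.97. They lay at chr6:12893846-12894283, chr6:44257093-44258010 and chr12:114662503-114663011. These values follow from how the 6 were picked and are a description of the edge only. Over all 426 regions with 2 peaks at 72 h and 1 at 0 h, the median was 0.33, and over the 423 with no peak at 0 h and 1 at 72 h it was 0.42. Leaving out 1 Rad21 library from the rule gave 271 to 426 members. Requiring -log10 q of at least 10 gave 46.

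The 6 members named for the largest Rad21 change differed in kind. At chr2:26605589-26606164, in CIB4, which encodes a calcium and integrin binding protein, Rad21 was 3.62 and 1.9 CPM at 0 h and 16.7 and 10.7 CPM at 72 h. This is the member labelled up by the authors, and its log2 fold change was 2.27 (SE 0.37). At chr8:22755997-22756535, in PEBP4, a gene of the phosphatidylethanolamine-binding family, the values were 1.89 and 4.43 CPM, then 12.5 and 14.5 CPM. For all 6, the naming rule required each 72 h library to be above each 0 h library. Leaving out the first 0 h replicate gave 3.06 in CIB4, and leaving out the second gave 2.84 in PEBP4.

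At chr7:142534853-142535507, in the T cell receptor beta locus (TRB), Rad21 was 6.92 and 4.43 CPM at 0 h and 19.9 and 18.3 CPM at 72 h. On proximal chromosome 15, at chr15:19605494-19605797, it was 3.93 and 1.9 CPM, then 10.6 and 10.9 CPM, with a log2 fold change of 1.83 that was 2.69 without the first 0 h replicate. At chr2:168618469-168618839, in CERS6, a ceramide synthase gene, it was 13.7 and 17.9 CPM, then 44.7 and 70.7 CPM. The last of these was by level the strongest of the 6. The CTCF region at the CERS6 member had the same ends as the Rad21 region, and the Jun region had nearly the same ends. The cause was not tested.

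The largest fold change of all rested on 1 library. At chr16:78574873-78575226, in WWOX, a gene spanning a common fragile site, Rad21 was 4.56 and 2.74 CPM at 0 h and 7.44 and 39.6 CPM at 72 h. The log2 fold change of 2.62 (SE 0.50) was 1.07 without the second 72 h replicate and 3.45 without the first. CTCF there was 132 and 38.6 CPM at 0 h, 35.9 and 33.4 CPM at 6 h and 10.6 and 20.8 CPM at 72 h. H3K27ac was 64.8 and 5.27 CPM at 0 h, 132 and 28.0 CPM at 6 h and 2.39 and 10.3 CPM at 72 h. Replicates of 3 antibodies thus differed severalfold at this site. The regions of all 4 antibodies also had nearly the same ends. CTCF was at chr16:78574870-78575228, H3K27ac at chr16:78574869-78575232 and Jun at chr16:78574872-78575227. The cause of either was not tested.

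The 3 smallest changes were -0.26 at chr1:32400772-32401261, near BSDC1, -0.24 at chr10:25026489-25026963, in ENKUR and THNSL1, and -0.10 at chr5:32093260-32093645, in PDZD2. At the first, Rad21 was 9.28 and 7.81 CPM at 0 h and 6.996 and 7.35 CPM at 72 h. These members hold a peak only at 72 h although their mean level was slightly lower there.

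The rule required a CTCF peak in every library, and it left room for the level to move. Median CTCF was 21.7 and 22.7 CPM at 0 h, 21.04 and 25.2 CPM at 6 h and 23.3 and 22.6 CPM at 72 h. The median log2 fold change from 0 to 72 h was -0.05 in members, -0.31 in kept, -0.47 in lost and 0.03 in all tested regions. In members its quartiles were -0.43 and 0.32 and its range -2.42 to 1.92. Averaged over the 6 libraries the median member had 23.9 CPM, the median kept region 34.3 and the median lost region 22.002. The summits of the 72 h Rad21 and CTCF peaks lay a median of 52 and 61 bp apart in members and 47 and 47 bp in kept regions.

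By edgeR, 10 members (7.30%) passed for CTCF at 72 against 0 h, 5 higher and 5 lower, where 6.79% of all tested regions did, 4.07% higher and 2.72% lower. Since the rule required CTCF peaks, this is a description. Without the first or the second 0 h replicate 1 passed, without either 72 h replicate 3, and without the first or second 6 h replicate 19 or 18. The higher 5 were picked out after their values were seen. They lie in CCR1, a chemokine receptor gene, in TRB, in CIB4, in ARHGAP26 and in the uncharacterised LOC105371974. At the CCR1 member, chr3:46208079-46208791, CTCF was 19.9 and 20.9 CPM at 0 h, 17.5 and 25.2 CPM at 6 h and 63.1 and 58.4 CPM at 72 h. At the LOC105371974 member, chr18:7272399-7272739, it was 14.3 and 10.5 CPM, then 15.2 and 18.7 CPM, then 44.0 and 50.6 CPM. CTCF at both sites was high at 72 h alone, so a peak in every library did not mean an equal level at these members.

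The 3 highest were chr18:96901-97344, near TUBB8B, chr5:160438492-160438902, near PTTG1, and chr11:128157776-128158093, in LINC02725. The first held 112 to 242 CPM of CTCF and a Rad21 log2 fold change of 1.11 (SE 0.34). The other 2 had Rad21 changes of 0.72 and 1.06. None of the 3 overlapped an H3K27ac or Jun region. The 3 lowest were chr2:27321133-27321673, in MPV17, chr16:75062470-75062925, in ZNRF1, and chr15:19605494-19605797. They had Rad21 changes of 0.64, 0.20 and 1.83.

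Acetylation rose at more members than it fell. An H3K27ac region was overlapped by 70 of the 137 members (51.1%), 59.3% of kept and 16.5% of lost regions, and all 70 passed the filter on low counts. The other 67 have no H3K27ac level in the table. Over the 70, median H3K27ac was 1.39 and 1.50 CPM at 0 h, 4.09 and 3.32 CPM at 6 h and 5.21 and 4.64 CPM at 72 h. The median of each later library lay above that of both 0 h libraries. At 72 against 0 h, 44 of 70 were higher (62.9%, exact binomial 95% interval 50.5 to 74.1%, which covers sampling of regions only) and 13 lower (18.6%) by edgeR. Among all tested regions 81.5% were called, 43.4% higher and 38.1% lower.

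Kept regions showed the opposite balance, with 20.7% higher and 40.6% lower, and so did lost regions, with 17.7% and 51.4%. Regions are not replicates of a condition, so these shares are set side by side without a test. The median log2 fold change was 1.23 in members, 0.18 in all tested, -0.32 in kept and -0.67 in lost regions. The difference of 1.05 between members and all tested regions was the same under both scalings. The share that was higher was 58.6 to 64.3% when each H3K27ac library was left out in turn. Regions with 1 peak too many at 0 h were higher in 46.9% of 196, and those with 1 peak too few at 72 h in 38.7% of 111.

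**Figure D2:**
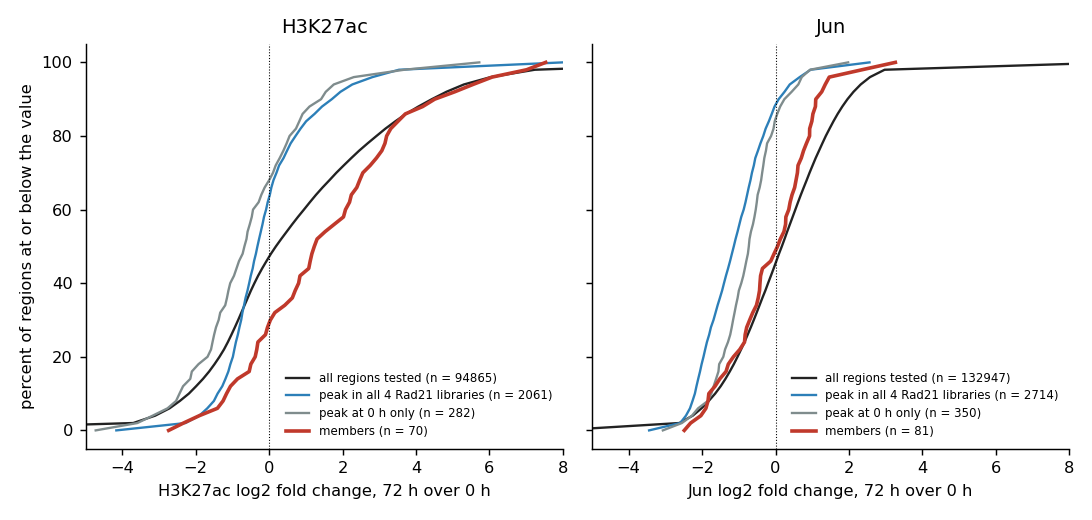
Cumulative distribution of the log2 fold change from 0 to 72 h for H3K27ac (left) and Jun (right), with percent of regions on the vertical axis, for members, kept regions, lost regions and all tested regions. The H3K27ac curve of the members lies to the right of the other curves over most of its length (median 1.23 against 0.18 for all regions), while for Jun it lies close to that of all regions in the lower and middle part (median 0.06 against 0.17) and to its left above (80th percentile 0.93 against 1.37).

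Much of the acetylation was in place at 6 h, when cohesin was not measured. At 6 against 0 h, 34 of 70 members were higher and 7 lower, where 32.3% and 26.3% of all tested regions were. At both times 31 members were higher, at 72 h alone 13, and at 6 h alone 3. Lower at both times were 7 and at 72 h alone 6, and 10 passed at neither. These patterns over the times were not counted over all tested regions, so nothing particular to the members is read from them. Between 6 and 72 h, 22 were higher and 17 lower at the later time, where 33.1% and 30.8% of all tested regions were. By peak calls, both libraries had an H3K27ac peak at 20 members at 0 h (14.6%), 28 at 6 h (20.4%) and 45 at 72 h (32.8%). In kept regions the shares were 29.1%, 29.3% and 36.1%. The deposited H3K27ac lists were longest for 72 h, with 65267 and 66147 peaks, against 36947 to 42852 in the 4 earlier libraries. At 72 h alone, 23 members (16.8%) had one, against 6.96% of kept and 1.29% of lost regions, and 75 had none in any library.

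The members with the largest rise started from almost no acetylation, which ranking by fold change favours. At chr5:79857803-79858712, close to the uncharacterised LOC105379048, H3K27ac was 0.17 and 0.11 CPM at 0 h, from 3 and 2 counts. It was 16.1 and 18.7 CPM at 6 h and 26.1 and 26.7 CPM at 72 h. The log2 fold change at 72 h was 7.53 (SE 0.27, edgeR adjusted p = 2.04e-18), and it was 6.94 at 6 h.

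The other 3 were also called higher at 6 h. At the CIB4 member H3K27ac was 0.34 and 0.05 CPM at 0 h, from 6 and 1 counts, then 2.099 and 1.18 CPM, then 19.0 and 18.2 CPM. Its log2 fold change was 3.00 at 6 h and 6.56 at 72 h (SE 0.33, edgeR adjusted p = 2.18e-15). At chr17:49952460-49953315, 102851 bp from the start of the non-coding gene PICART1, it was 0.40 and 0.11 CPM, then 1.47 and 1.43 CPM, then 14.9 and 15.6 CPM. The log2 fold change there was 2.52 at 6 h and 5.92 (SE 0.31) at 72 h. With so few counts at 0 h, leaving out 1 of these libraries gave 5.74 or 8.31 in CIB4 and 5.24 or 7.10 near PICART1. At the PEBP4 member it was 0.34 and 0.32 CPM, then 3.78 and 3.10 CPM, then 16.3 and 16.1 CPM. Its log2 fold change was 3.35 at 6 h and 5.60 (SE 0.27) at 72 h. The naming rule required the 0 and 72 h libraries to lie apart. In all 4 the 6 h libraries lay between them. At the CCR1 member, picked out above, H3K27ac rose by 4.88 on the log2 scale (SE 0.75, edgeR adjusted p = 1.99e-06) but reached only 1.70 and 1.86 CPM.

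The 4 largest falls under the same limits were at members strongly marked before PMA, which the limit on level favours. Outside these limits the lowest change of any member was -2.73. The WWOX member, whose 0 and 72 h libraries overlapped, changed by -2.45 (SE 0.66). At chr16:75062470-75062925, in ZNRF1, a ubiquitin ligase gene, H3K27ac was 68.1 and 72.5 CPM at 0 h, 31.8 and 36.3 CPM at 6 h and 16.6 and 15.5 CPM at 72 h. The log2 fold change was -2.13 (SE 0.11, edgeR adjusted p = 3.45e-15). At the DHRS13 promoter member, chr17:28902850-28903403, it was 30.9 and 37.5 CPM, then 17.4 and 19.4 CPM, then 10.1 and 9.14 CPM. The change there was -1.83 (SE 0.13). Separate 0 and 72 h libraries were again required, and at both members the 6 h libraries lay between them.

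Near SMARCD2, a chromatin remodelling subunit gene, at chr17:63848930-63849673, H3K27ac fell by 1.43 on the log2 scale, from 48.0 and 45.7 to 16.9 and 17.8 CPM. At chr12:82358324-82359083, which holds the CCDC59 cores printed above and the start of METTL25, it fell by 1.26, from 32.8 and 30.7 to 14.3 and 12.2 CPM. Rad21 at that member was 4.72 and 6.54 CPM at 0 h and 12.9 and 10.9 CPM at 72 h, and CTCF was 79.9 to 126 CPM throughout. Cohesin there was therefore higher, which the rule on Rad21 peaks favours, while acetylation was lower.

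**Figure D3:**
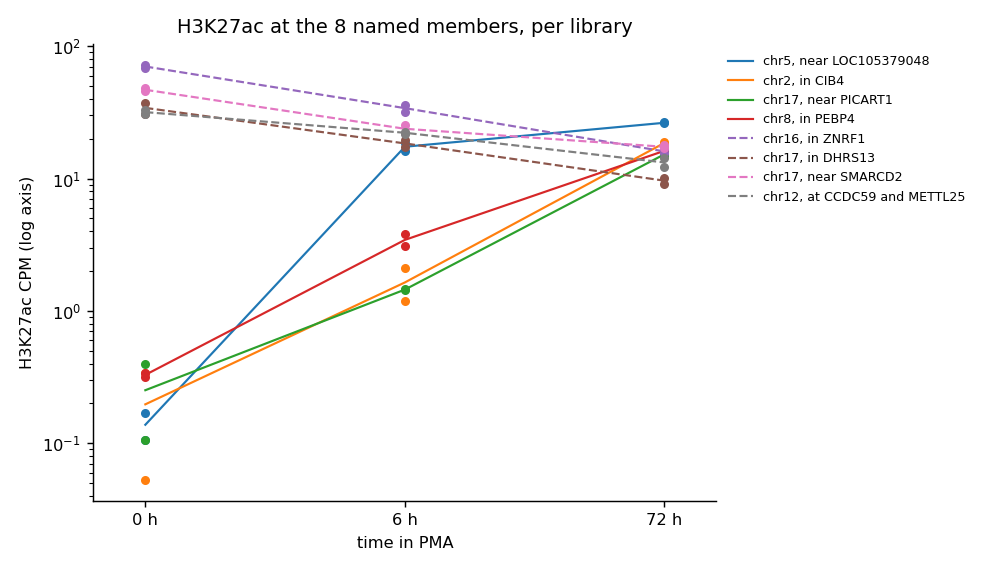
H3K27ac (CPM, log axis) at 0, 6 and 72 h at named members. Solid lines are the 4 largest rises and dashed lines the 4 largest falls. Only called members at or above the median level, with 0 and 72 h libraries apart, were ranked. Points are the 2 libraries and lines join their means. The rising members start below 1 CPM and end at 14.9 to 26.7 CPM, and the falling members start at 30.7 to 72.5 CPM and end at 9.14 to 17.8 CPM. Ranking by fold change favours a low start for rises, and the limit on level favours a high start for falls.

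Members were also compared by place, against 11.7% of all members at a promoter and a median distance of 16120.5 bp from a gene start. Of the 41 with higher H3K27ac off chromosome 8, 8 overlapped a promoter (19.5%), at a median of 15768 bp from the nearest start. Of the 13 with lower H3K27ac, 5 did (38.5%), at a median of 798 bp. No promoter was overlapped by the 62 members off chromosome 8 without an H3K27ac region, whose median distance was 25073.5 bp. Median H3K27ac at 0 h was 0.54 and 0.63 CPM in the first group and 32.8 and 33.0 CPM in the second. The median Rad21 log2 fold change was 1.21 at members with higher, 0.64 at members with lower and 0.61 at members with no H3K27ac region. Since Rad21 chose the members, these medians are descriptive.

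Jun changed in both directions at about the share seen genome-wide. A Jun region was overlapped by 81 members (59.1%), 78.7% of kept and 21.3% of lost regions, and all 81 were tested. The other 56 have no Jun level in the table. Median Jun was 4.52 and 4.87 CPM at 0 h, 6.81 and 5.29 CPM at 6 h and 4.37 and 4.29 CPM at 72 h. At 72 against 0 h, 21 were higher (25.9%) and 24 lower (29.6%) by edgeR, where 53.7% of all tested regions were called, 28.0% higher and 25.7% lower. In kept regions 3.43% were higher and 65.3% lower, and in lost regions 2.29% and 37.7%. The median log2 fold change was 0.06 in members, 0.17 in all tested, -1.14 in kept and -0.73 in lost regions.

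The direction of the Jun calls depended on scaling. With total counts 35 members were higher and 14 lower, and the median of all tested regions moved from 0.17 to 0.73. Relative to that median, members lay at -0.12 under TMM and -0.11 under total counts. Without the first 72 h replicate 29 members were called and without the second 26, and DESeq2 called 29. At 6 against 0 h, 17 were higher and 4 lower, where 13.1% and 12.2% of all tested regions were. At 72 against 6 h, 3 were higher and 22 lower, against a background of 12.7% and 13.5%. Both Jun libraries had a peak at 20 members at 0 h (14.6%), 24 at 6 h (17.5%) and 52 at 72 h (38.0%), against 44.2%, 34.2% and 56.1% of kept regions, and peaks numbered 23946 to 99102 per Jun library.

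**Figure D4:**
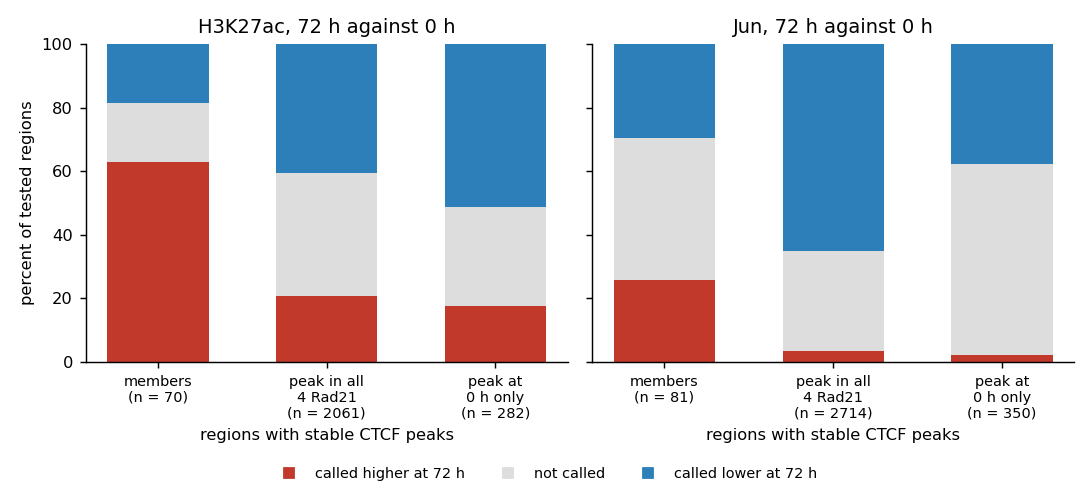
Percent of tested regions called higher (red), not called (grey) or called lower (blue) at 72 against 0 h by edgeR, for H3K27ac (left) and Jun (right). Among members 62.9% were higher for H3K27ac and 25.9% for Jun, against 20.7% and 3.43% of kept regions. Over all tested regions the shares were 43.4% and 28.0%. Under total count scaling the Jun share of members is 43.2%. Of the Jun calls, 71.4% in members and 74.4% over all regions were then higher.

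Of the 4 largest Jun increases, 2 were at members already named for acetylation. At chr5:79857803-79858712 Jun was 1.46 and 1.00 CPM at 0 h, 15.9 and 20.8 CPM at 6 h and 12.7 and 11.1 CPM at 72 h. The log2 fold change was 3.90 at 6 h and 3.26 (SE 0.32, edgeR adjusted p = 7.25e-08) at 72 h. Near PICART1 it was 2.92 and 3.15 CPM, then 10.9 and 9.31 CPM, then 21.9 and 20.3 CPM, and the 72 h change was 2.79 (SE 0.24). Jun was highest at 6 h at the first and at 72 h at the second.

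The TRB member had 1.896 and 1.29 CPM of Jun at 0 h, 2.95 and 1.46 CPM at 6 h and 6.85 and 6.54 CPM at 72 h, a change of 2.06 (SE 0.36). It overlapped no H3K27ac region. At the LINC02768 promoter member, chr1:235971449-235972794, Jun was 5.54 and 6.74 CPM, then 14.1 and 10.9 CPM, then 17.5 and 16.98 CPM, a change of 1.49 (SE 0.22). H3K27ac there was 0.40 and 1.48 CPM at 0 h and 15.0 and 13.9 CPM at 72 h, and Rad21 was 9.28 and 11.2 CPM, then 24.4 and 22.999 CPM. Jun and H3K27ac therefore were higher at 72 h at this promoter, and so was Rad21, which the rule on Rad21 peaks favours. The printed bases of the promoter hold neither the CTCF core nor the AP-1 letters.

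The 4 largest Jun decreases were of another kind. They lay at chr15:19222130-19222483, at the WWOX member, at the CERS6 member and at chr12:34970391-34970818, and had log2 fold changes of -2.48, -2.35, -2.29 and -2.07. Without the first 0 h replicate the value was -1.83 at the chromosome 15 member and -1.60 in CERS6, and without the second 72 h replicate it was -2.97 in WWOX. At the CERS6 member Jun was 20.7 and 9.32 CPM at 0 h, 15.2 and 17.7 CPM at 6 h and 3.47 and 2.67 CPM at 72 h. CTCF at that member was 16.8 and 22.7 CPM at 0 h, 83.5 and 135 CPM at 6 h and 16.6 and 39.6 CPM at 72 h, the 1 member called for CTCF at 6 against 0 h (2.65% of all tested regions were). The 2 members on chromosomes 15 and 12 lay 790408 and 751394 bp from the nearest gene start, and neither overlapped an H3K27ac region. Jun was lower at 72 h in all 4 because they were picked for it. Their Rad21 was higher, which the rule on Rad21 peaks favours, and in WWOX this rested on 1 library.

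Both an H3K27ac and a Jun region were overlapped by 53 members. In 28 both fold changes were above 0, in 12 both were below, in 13 only H3K27ac was above and in none only Jun was. By calls, 19 members were higher for both and 7 lower for both, 5 were higher for H3K27ac and lower for Jun, and none the reverse. The same joint counts were not made over all regions, so nothing particular to the members is read from them. Neither kind of region was overlapped by 39 members. Rad21 was called higher at 19 of the 21 members with higher Jun and at 8 of the 56 without a Jun region. The median Rad21 change was 1.34 and 0.53 in these groups, and the median CTCF change was 0.50 and -0.16. These last values come from the contrasts that chose the members and are descriptive.

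**Figure D5:**
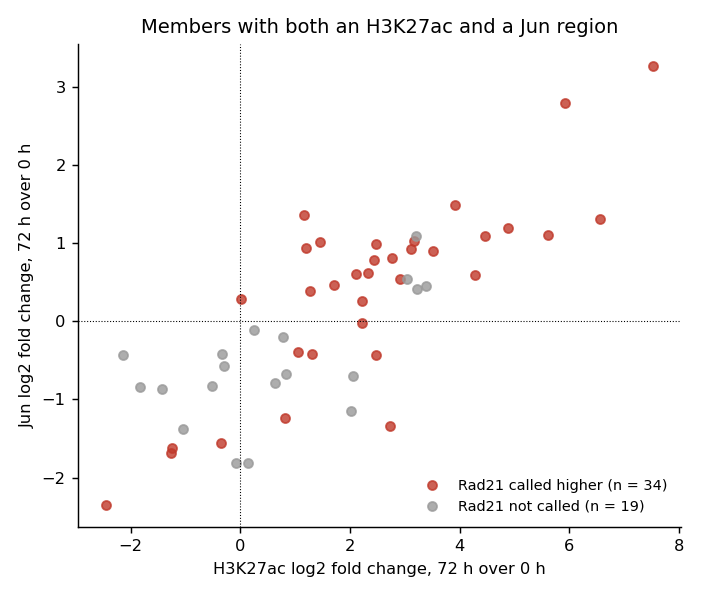
Log2 fold change from 0 to 72 h of H3K27ac (horizontal) against Jun (vertical) at the 53 members with both regions; red points are the 34 where Rad21 was called higher by edgeR and grey points the 19 where it was not. Of the 53, 28 lie in the upper right quadrant and 12 in the lower left, and the upper left is empty. The same quadrants were not counted over other regions.

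In the genome the members were scattered. They fell on 22 chromosomes, most on chromosome 1 (19), 17 (12) and 19 (11), with none on 13. The nearest other member lay a median of 4338717 bp away and within 10 kb for 1 pair only, while the nearest kept region lay a median of 136550 bp away. Within an annotated gene lay 81 members (59.1%), 58.2% of kept and 61.3% of lost regions. Members were narrower, with a median width of 456 bp against 633 bp for kept and 504 bp for lost regions. An H3K27ac region called higher at 72 h lay within 10 kb of 67 members (48.9%), 35.8% of kept and 26.2% of lost regions. One called lower lay within 10 kb of 42 members (30.7%), 40.1% of kept and 31.6% of lost regions.

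Members were set against 4 lists of genes. Within 100 kb there was a member at 0 of 20 megakaryocyte and platelet genes, 1 of 19 erythroid genes, 2 of 17 AP-1 and early PMA response genes and 0 of 15 cohesin and CTCF genes. Of all 59094 genes in the RefSeq table on these chromosomes, 1.895% had one. The 3477 kept regions reached 7, 12, 7 and 5 of these and 29.1% of all genes. The erythroid gene was EPOR, the erythropoietin receptor. At its member, chr19:11293620-11294171, Rad21 was 5.82 and 4.85 CPM at 0 h and 11.9 and 10.7 CPM at 72 h. H3K27ac there rose by 1.81 on the log2 scale (SE 0.54, edgeR adjusted p = 0.00383) at low level, to 1.303 and 1.02 CPM.

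Near FOSB, an AP-1 subunit gene, the member at chr19:45506273-45506879 held 74.96 and 89.0 CPM of Jun at 0 h, 39.3 and 59.9 CPM at 6 h and 29.5 and 26.4 CPM at 72 h. Jun there fell by 1.55 on the log2 scale (SE 0.21, edgeR adjusted p = 2.87e-06) and H3K27ac by 0.35, while Rad21 was 8.18 and 5.07 CPM, then 12.9 and 14.9 CPM. EGR3, an early growth response factor gene, had 2 members within 100 kb. They were the PEBP4 member and chr8:22622280-22623252, in BIN3. At the latter H3K27ac was 3.58 and 2.74 CPM at 0 h, 13.9 and 13.7 CPM at 6 h and 10.5 and 10.2 CPM at 72 h, and Jun was 5.98 and 7.596 CPM, then 17.02 and 17.9 CPM, then 9.46 and 9.25 CPM. Both marks were highest at 6 h there, whereas H3K27ac at the PEBP4 member was highest at 72 h.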

How the data were processed

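CUT&RUN libraries of K562 cells in PMA were used as deposited. Per the submitters' processing notes, Trim Galore 0.4.3, BWA 0.7.17, SAMtools 1.9, deepTools 3.0.1, MACS2 and bedtools 2.26 were used. These notes list builds hg19 and hg38. Contig names in the deposited files are those of hg38. The authors deposited raw counts per region, and their table of labels with log2 fold changes and p-values, from which the labels are quoted. The authors' deposited peak lists, 1 per library, hold fold enrichment over background and -log10 q per peak as MACS2 writes them, per the file headers and the submitters' processing notes. Region starts equal peak starts counted from 0, so 1 was added to print positions.

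Here edgeR 4.0.16 in R 4.3.3 was fitted on the deposited counts of all libraries of an antibody and all regions (filterByExpr by group, TMM, quasi-likelihood test, Benjamini-Hochberg adjusted p under 0.05). It was tested on simulated data. DESeq2 1.42.0 was an alternative. A member takes the H3K27ac, Jun or CTCF region it overlaps most. Counts of replicates differed beyond sampling noise (chi-square per degree of freedom 2.13 to 6.91).

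The members, gene lists and tests were chosen with earlier results of these data known. Named members were the 6 largest and 3 smallest Rad21 changes, 3 nearest the peak threshold on each side, 4 largest and 4 smallest called changes of H3K27ac and of Jun at or above the median level with groups apart, the 3 highest and 3 lowest CTCF levels, and members within 100 kb of listed genes. The largest Rad21 changes were taken at or above the members' median level with groups apart. Promoter sequences and members with a changed CTCF level were chosen after their values were seen. No genome sequence was used, so region sequences are not analysed here.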

Additional observations from a re-analysis of the deposited data

Results flagged for a closer look

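At named members the effect at 72 h differed from that at 6 h, tested directly as 72 against 6 h by edgeR over all regions. For H3K27ac the log2 difference was 3.55 at the CIB4 member, 3.39 near PICART1, 2.25 at the PEBP4 member and 0.59 near LOC105379048, all further rises. It was -1.09 at the ZNRF1 member, -0.94 at DHRS13, -0.74 at CCDC59 and -0.46 near SMARCD2, all further falls. For Jun it was 1.64 at the TRB member, 1.07 near PICART1 and -0.63 near LOC105379048. At the 4 members with the largest Jun decrease it was -2.69 in WWOX, -2.43 in CERS6, -2.10 at chr15:19222130-19222483 and -1.52 at chr12:34970391-34970818, where the 6 against 0 h changes were 0.34, 0.14, -0.39 and -0.55. In data outside the comparison, 2 Rad21 regions on unplaced contigs met the rest of the rule.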

How the results depend on the processing

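Under DESeq2, 20 members were called for Rad21, 3 for CTCF at 72 h and 29 for Jun at 72 h, and the share with higher Jun was 12.3%. Total count scaling called 2 for CTCF at 6 h and gave a higher Jun share of 43.2%. The replicate block called 4 for CTCF at 6 h and otherwise kept every count of members called within 1.5 times. The labels share only a replicate number, and same-numbered libraries' deviations correlated at -0.00841 to 0.124. Leaving out each library gave 22 to 55 members called for Rad21, 0 to 4 for CTCF at 6 h, 1 to 19 for CTCF at 72 h, 26 to 51 for Jun at 72 h, a higher Jun share of 12.3 to 28.4% and 137 to 426 members by the rule. Peaks of -log10 q of at least 10 left 46 members, with a higher Jun share of 41.0%. Among members with Rad21 called higher, a subset chosen after seeing the data, 84.2% were higher for H3K27ac and 44.2% for Jun. With the strongest region within 10 kb, 67 and 88 members were called for H3K27ac at 6 and 72 h and 39 and 79 for Jun, since more members then have a region (103 and 124). With each library left out, the Rad21 change was -0.35 to 0.083 near BSDC1 and -0.17 to 0.21 in PDZD2, positive without the first 0 h replicate in both and without the first 72 h replicate in PDZD2 (0.06). The CTCF core over all members was not run, since no genome was used. The median Rad21 count per member was 22 to 52 per library, and the smallest change detectable at that depth was not measured.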
